A study of Mus musculus with 12 samples.

Results

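NMDA receptors and metabotropic glutamate receptors of the hippocampus were followed through 9 genes, taken by name from a table of 33250 gene symbols. They were Grin1, Grin2a, Grin2b, Grin2c, Grin2d and Grin3a, which encode NMDA receptor subunits, and Grm2, Grm5 and Grm7, which encode metabotropic receptors. All 9 had a row in the table and all 9 passed the filter on low counts. Bulk hippocampus of 12 male mice had been sequenced as polyA RNA, 1 library per animal. The first group, labelled cKO, was 6 animals described as having lost the miR379-410 microRNA cluster by Cre recombinase in cells that express Emx1. This is a homeobox gene of dorsal forebrain excitatory neurons and glia. The second group was 6 wild-type (WT) animals, and no source used here says whether they carried Cre or floxed alleles. The mice were adult by the title of the series, and their age in weeks is not stated there. Interneurons, microglia and vessel cells of the cKO tissue lie outside the Emx1 lineage and keep the cluster, so each value mixes cells with and without it. In such bulk samples, fewer cells of a type and less RNA per cell cannot be told apart.

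NMDA receptors are glutamate-gated, calcium-permeable channels that need a co-agonist, glycine or D-serine, and relief of a magnesium block. Each is a tetramer of obligatory GluN1 subunits with GluN2 or GluN3 subunits, and the GluN2 type sets the kinetics and the scaffold contacts of the channel. In the forebrain GluN2B dominates early and GluN2A is added as synapses mature, and both serve plasticity at hippocampal synapses. Metabotropic receptors signal through G proteins instead. mGlu5 (Grm5) couples to Gq and sits mainly around the postsynaptic density, while mGlu2 (Grm2) and mGlu7 (Grm7) couple to Gi/o and act mainly at presynaptic terminals.

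The tissue label was checked against marker lists. Markers of excitatory neurons, dentate granule cells, CA1 and CA3 were present in every library, with summed levels of 6441 to 7317, 278 to 441, 584 to 766 and 369 to 409 CPM in cKO and 6741 to 7510, 371 to 450, 652 to 742 and 325 to 400 CPM in WT. CPM is the count relative to the library size, scaled between libraries by TMM. Cerebellar markers summed to at most 1.79 CPM in cKO and 1.46 CPM in WT. Library totals were 44803793 to 51095816 counts in cKO and 42360624 to 50804084 in WT. Libraries stood apart in 2 ways that bear on what follows. The library labelled cKO 1 had 0.788 CPM of B830012L14Rik, a long non-coding RNA near the cluster, within the WT range of 0.310 to 0.865 CPM, while cKO 2 to 6 had 17.4 to 25.8 CPM. The library was kept under its label, and deletion of the cluster in that animal was not tested. Mirg, a long non-coding RNA that overlaps the cluster, was at 34.1 ± 7.31 CPM in cKO and 30.7 ± 2.39 CPM in WT (SD, n = 6 each) and did not separate the groups. The summed level of 10 choroid plexus markers was 58.9 CPM in cKO 4 and 3409 to 5602 CPM in the other cKO libraries, and 90.6 CPM in WT 2, 581 CPM in WT 3 and 2452 to 8358 CPM in the other WT libraries.

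The receptor genes differ widely in size, which matters for reading their levels and for the cluster's possible contacts with them. On GRCm38 (GENCODE M21), Grin2b lies on chromosome 6 from 135713233 to 136173511 and Grin2a on chromosome 16 from 9567898 to 9995560, both on the minus strand. Grm5 lies on chromosome 7 from 87584168 to 88134907 and Grm7 on chromosome 6 from 110645581 to 111567230, both on the plus strand. These 4 genes span 428 to 922 kilobases. Grin3a on chromosome 4 spans 184 kilobases, from 49661611 to 49845744. Grin1 (chromosome 2 from 25291181 to 25319187), Grin2c (chromosome 11 from 115249169 to 115267243), Grin2d (chromosome 7 from 45831883 to 45878378) and Grm2 (chromosome 9 from 106643095 to 106656082) span 13.0 to 46.5 kilobases. The longest annotated 3′ UTR was 18865 bases for Grin2b and 9929 bases for Grin2a, longer than 99.96% and 99.59% of the 3′ UTRs of 15264 tested genes. It was 4038 bases for Grm5, 3615 for Grin3a, 1901 for Grm2, 1187 for Grin1, 1163 for Grm7, 897 for Grin2d and 402 for Grin2c.

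MicroRNAs pair with 3′ UTRs mainly through their seed, bases 2 to 8 of the mature strand. RefSeq (GRCm38.p6) gave 71 mature sequences from 36 hairpins of the cluster, between 109709060 and 109743795 on chromosome 12, with 64 distinct seeds. The 8 microRNAs whose seed matched the 3′ UTR of at least 4 of the 9 receptor genes are shown 5′ to 3′ with the seed in capitals, since they are the arms of the deleted cluster with the broadest matches in this family.
miR-134-3p: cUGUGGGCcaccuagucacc
miR-667-5p: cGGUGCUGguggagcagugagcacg
miR-495-3p: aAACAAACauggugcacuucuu
miR-539-5p: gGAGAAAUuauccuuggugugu
miR-654-3p: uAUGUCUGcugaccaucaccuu
miR-376b-3p: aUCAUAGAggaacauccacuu
miR-543-3p: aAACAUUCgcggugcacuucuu
miR-323-3p: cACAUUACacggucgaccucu
No seed was shared among these 8. Matches of miR-134-3p lay in Grin2a, Grin2b, Grin2d, Grin3a and Grm2, and those of miR-667-5p in Grin1, Grin2a, Grin2b, Grin3a and Grm2. These matches were found in 12.3% and 14.3% of the tested 3′ UTRs. Matches of miR-539-5p and miR-654-3p were found in 17.2% and 14.2%, and those of miR-376b-3p, miR-543-3p and miR-323-3p in 9.66%, 14.3% and 9.81%. All 8 had a match in Grin2b, which has the longest 3′ UTR of the 9 genes, and a longer 3′ UTR offers more places for a match. How abundant each arm is in the hippocampus was not measured here.

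The seed of miR-495-3p had the most matches, 22, in Grin2b, Grin3a, Grm5 and Grm7, and 24.0% of the tested 3′ UTRs held at least 1. Grin2b had 15 of them, of which 11 overlapped another in runs of repeated bases, and 10 could be placed without overlapping each other. The match that lies nearest to the stop codon of each of 3 genes, and the first Grin2b match outside such a run, are given on the transcript strand, with the 7 matched bases in capitals.
Grin2b, chr6:135725837-135725843, minus strand: aataagccaatGTTTGTTgagcatttatt
Grin3a, chr4:49664847-49664853, minus strand: tatcttactggGTTTGTTtttaatattat
Grm5, chr7:88131249-88131255, plus strand: tggacagtcttGTTTGTTtacttcatttt
Grm7, chr6:111566504-111566510, plus strand: ctcggttcactGTTTGTTtttgaatgccc
The match begins 6255 bases after the stop codon in Grin2b, 373 in Grin3a, 380 in Grm5 and 437 in Grm7.

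Over all 64 seeds, Grin2b had 91 matches and Grin2a 46. Grin3a had 18, Grm5 13, Grm2 11, Grm7 6, Grin1 5, Grin2d 2 and Grin2c 0. Per kilobase of 3′ UTR, Grin2b had 4.82 matches, Grin2a 4.63, Grin3a 4.98, Grm5 3.22, Grm2 5.79, Grm7 5.16, Grin1 4.21, Grin2d 2.23 and Grin2c 0, beside a median of 3.97 over the 15264 tested genes. A match to 7 bases is common, and 89.3% of the tested 3′ UTRs held at least 1. The matches describe the reference sequence and do not show that a site is used.

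Relative levels were compared per kilobase of annotated exon, in TMM-scaled CPM per kilobase. Grin1, the obligatory subunit, was the most abundant of the 9 at 52.3 ± 2.37 in cKO and 55.6 ± 2.14 in WT (SD, n = 6 each). Grin2b followed at 27.0 ± 2.09 in cKO and 31.8 ± 3.38 in WT, then Grm5 at 23.3 ± 1.37 and 26.4 ± 2.54, and Grin2a at 19.1 ± 1.93 and 21.9 ± 1.65. Grm2 was at 13.3 ± 1.36 in cKO and 13.3 ± 0.925 in WT, Grin2c at 9.88 ± 0.444 and 10.04 ± 0.703, and Grm7 at 8.16 ± 0.391 and 8.98 ± 0.945. Grin3a, whose product lowers calcium entry through the channel, was at 3.28 ± 0.511 in cKO and 3.45 ± 0.405 in WT. Grin2d, a subunit known from interneurons, was lowest at 2.75 ± 0.523 and 2.58 ± 0.206. The rank of every gene was the same in cKO as in WT.

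Of the 36 pairs of receptor genes, 34 stood in the same order in every library. The ranges of Grin1 and Grin2b did not overlap over the 12 libraries, nor did those of Grin2a and Grm2, of Grm2 and Grin2c, or of Grm7 and Grin3a. Grin2b and Grm5, Grm5 and Grin2a, Grin2c and Grm7, and Grin3a and Grin2d overlapped in range, and of these neighbours Grin2c was above Grm7 in 10 libraries and Grin3a above Grin2d in 11. The order also depended on which bases count as the gene. With 3 other lengths (longest transcript, median coding transcript, coding sequence) added, 29 of the 36 pairs kept 1 order in all 12 libraries under all 4 lengths. Grm5 lay above Grin2b in 10 of 12 libraries by longest transcript. Grin2a lay above Grm5 in 12 libraries by median coding transcript and in 11 by coding sequence. Grin2c lay above Grm7 in only 1 library by longest transcript, and in 0 by median coding transcript or coding sequence. By coding sequence Grin1 lay above Grin2b in 10 libraries. Grin2b lay above Grin1 in all 12 libraries by the median coding transcript of Grin2b, which at 1582 bases is shorter than its coding sequence of 4446 bases. Grin2d stayed last under all 4 lengths.

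**Figure D1:**
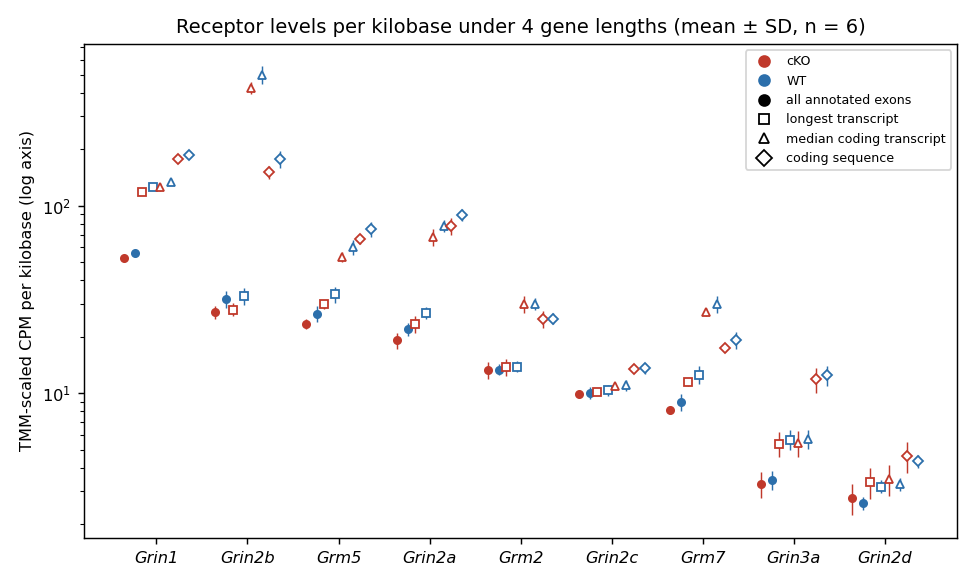
TMM-scaled CPM per kilobase (log axis) of the 9 receptor genes, in order of level per kilobase of all annotated exons, as mean ± SD of 6 cKO (red) and 6 WT (blue) libraries, with 1 marker shape for each of 4 gene lengths. Grin1 has the highest filled circle and Grin2d the lowest markers, and Grin2b moves most with the length used.

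Of the summed level of the 6 NMDA subunit genes per kilobase of exon, Grin1 took 45.8 ± 1.32% in cKO and 44.4 ± 1.52% in WT. Grin2b took 23.6 ± 0.939% in cKO and 25.3 ± 1.61% in WT, and Grin2a 16.7 ± 1.39% and 17.4 ± 0.637%. Grin2c, Grin2d and Grin3a together made up the rest, with 8.66 ± 0.578%, 2.41 ± 0.473% and 2.87 ± 0.467% in cKO and 8.04 ± 0.796%, 2.06 ± 0.118% and 2.75 ± 0.228% in WT. The summed GluN2 level was 1.12 ± 0.0680 times that of Grin1 in cKO and 1.19 ± 0.0721 times in WT (SD, n = 6 each). By longest transcript that ratio was 0.547 ± 0.0336 in cKO and 0.580 ± 0.0350 in WT, and by coding sequence 1.40 ± 0.0970 in cKO and 1.52 ± 0.114 in WT. By median coding transcript, in which Grin2b is short, it was 4.02 ± 0.264 in cKO and 4.42 ± 0.379 in WT. Whether GluN2 or Grin1 was higher therefore depended on the length, and the shares and ratios were not tested.

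The comparison of genotypes asks whether loss of the cluster changes expression of these receptors. None of the 9 genes passed an adjusted p of 0.05 in edgeR, DESeq2 or limma-voom. The adjustment was taken over 19325 genes in edgeR and limma-voom and over 18401 in DESeq2. Grin2b, Grin2a, Grm5 and Grm7 had the most negative log2 fold changes, -0.24 to -0.14, Grin1 was next at -0.09, and Grin2c and Grm2 lay close to 0. Grin2d was the only member with a positive value. Over all genes, edgeR called 0.0103% in either direction.

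At an unadjusted p under 0.05 in edgeR, 5 of the 9 genes were lower in cKO (Grin1, Grin2a, Grin2b, Grm5 and Grm7) and 0 higher, beside 6.34% of all genes tested lower, 3.20% higher and 9.54% in either direction. DESeq2 gave the same 5 genes, and limma-voom 4, without Grm7. The log2 fold change was below 0 for 8 of the 9 genes and for 46.6% of all genes tested, with a median of -0.09 over the 9 and 0.01 over all. In 0 of the 9 did all 6 cKO libraries lie below every WT library, which 0.223% of all genes did, and in 0 did all lie above, which 0.181% did. Some members vary together between libraries, Grin2b with Grm5 and Grin2a most closely, as described further on. These counts are therefore not those of 9 separate observations. Without WT 2, WT 5, cKO 3 or cKO 6, 3 genes (Grin2a, Grin2b and Grm5) remained of the 5, and when the 3 animals with the least choroid plexus RNA (cKO 4, WT 2 and WT 3) were left out, only Grin2b did (log2 fold change -0.23, unadjusted p = 0.0271, adjusted p = 0.623).

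**Figure D2:**
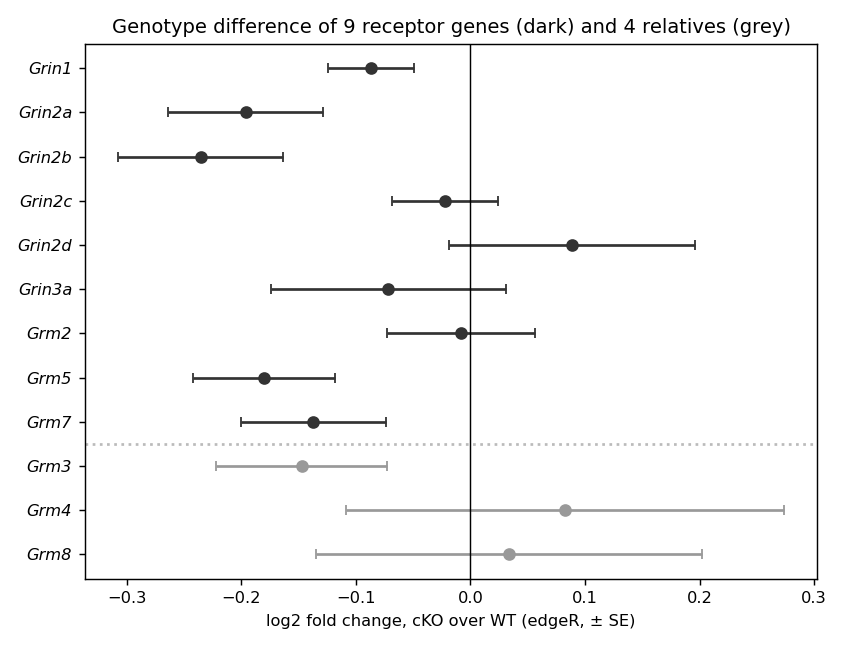
Log2 fold change of cKO over WT with its SE from edgeR, for the 9 receptor genes (dark) and for 3 relatives (grey). Grin2b has the most negative value, -0.24, and Grin2d the most positive of the 9, 0.09.

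Grin1 had 480, 508 and 537 CPM as the lowest, median and highest value in cKO, against 516, 540 and 565 CPM in WT. The groups overlapped, with 3 cKO libraries below the lowest WT library. Its log2 fold change was -0.09 ± 0.04 (SE, edgeR adjusted p = 0.496). The counts behind these values, 22238 to 27178 per library, make counting error small beside the spread between animals.

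Grin2b, the GluN2 subunit of early and extrasynaptic receptors, had 621, 661 and 765 CPM as the lowest, median and highest value in cKO, against 638, 809 and 885 CPM in WT. All WT libraries but WT 1 lay above every cKO library. WT 1, at 638 CPM, lay among the cKO values, and cKO 1 was the highest of its group. For Grin2b the log2 fold change was -0.24 ± 0.07 (SE), or 0.849-fold, and edgeR gave an adjusted p of 0.353. Without WT 1 it was -0.30 with an adjusted p of 0.0570, and without the library labelled cKO 1 it was -0.28 with an adjusted p of 0.104. Over all alternatives the adjusted p of Grin2b ran between 0.0570 and 0.702.

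Grin2a, the GluN2 subunit that is added as synapses mature, had 294, 342 and 388 CPM as the lowest, median and highest value in cKO, against 343, 396 and 422 CPM in WT. Of the 6 cKO libraries 3 lay below the lowest WT library, which was again WT 1. The log2 fold change was -0.20 ± 0.07 (SE, edgeR adjusted p = 0.399). It was -0.14 without the 3 libraries lowest in choroid plexus markers.

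The ratio of Grin2b to Grin2a counts, in which library scaling cancels, overlapped between the genotypes. It is a ratio of counts, not of levels per length, and gene length cancels in its difference between genotypes. It was 1.97 ± 0.144 in cKO and 2.01 ± 0.112 in WT (SD, n = 6 each). On the log2 scale the lowest and highest values were 0.88 and 1.17 in cKO and 0.90 and 1.11 in WT, so that the groups overlapped throughout. The difference of the log2 means was -0.03, and the two-sided exact permutation test gave p = 0.558 (a single test without adjustment, smallest possible p 0.00216). The highest ratio was that of cKO 4, whose Grin2a was the lowest of all libraries, and without cKO 4 the difference was -0.07 with an exact permutation p of 0.104.

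Among the minor subunits the differences were smaller than the spread between animals. Grin2c, known in forebrain mainly from astrocytes and some interneurons, had 46.2, 50.4 and 51.8 CPM as lowest, median and highest value in cKO, against 48.0, 48.9 and 57.3 CPM in WT. Its log2 fold change was -0.02 ± 0.05 (SE, edgeR adjusted p = 0.918). The groups overlapped, with cKO 2 the lowest library and WT 3 the highest.

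Grin2d had 14.6, 17.6 and 24.1 CPM as lowest, median and highest value in cKO, against 14.6, 17.4 and 18.5 CPM in WT. The cKO libraries were more spread, with a coefficient of variation of 19.0% against 7.99% in WT, and 3 of them lay above the highest WT library. The log2 fold change of 0.09 ± 0.11 (SE, edgeR adjusted p = 0.852) turned to -0.01 without cKO 4. The gene overlaps Kdelr1 and Gm45441 on the opposite strand, which had up to 2459 and 310 counts in a library, against at least 685 for Grin2d. No source used here gives the strand setting, so reads of the overlap cannot be assigned.

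Grin3a had 33.3, 40.6 and 50.1 CPM as lowest, median and highest value in cKO, against 33.1, 43.1 and 47.0 CPM in WT. In both genotypes the range covered about the same span, with 5 of 6 cKO libraries inside the WT range. Its log2 fold change was -0.07 ± 0.10 (SE, edgeR adjusted p = 0.876). It was -0.14 without WT 1 or without cKO 4, and -0.03 without cKO 1 or without cKO 3. Without WT 2 it was -0.05.

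**Figure D3:**
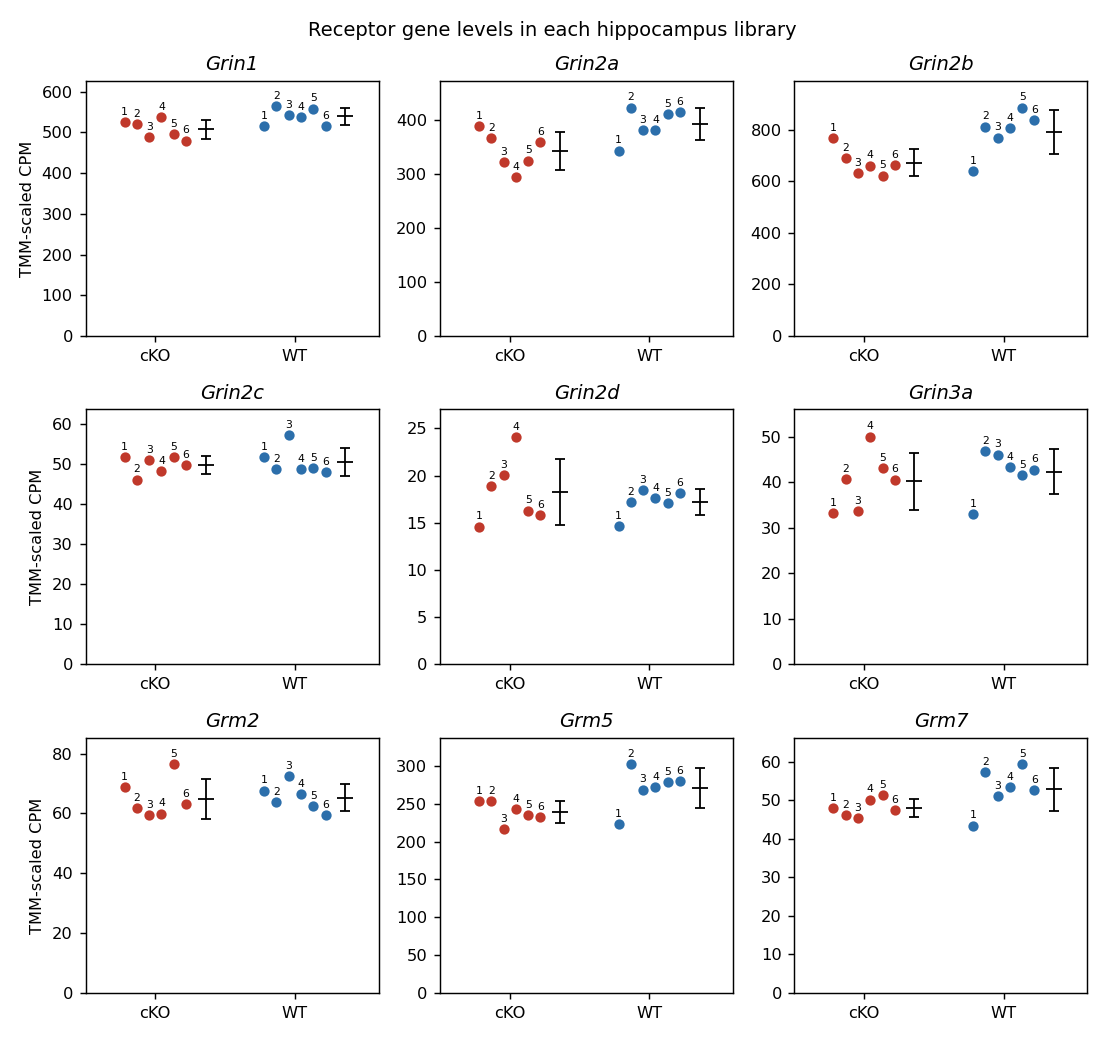
TMM-scaled CPM of each receptor gene in each library, cKO (red) left of WT (blue), numbered by animal, with the mean and SD of 6 animals in black. WT 1 is the lowest WT library for Grin2b, Grin2a, Grm5, Grm7, Grin2d and Grin3a, and cKO 4 is the highest library for Grin2d and Grin3a.

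Of the metabotropic receptors, Grm5 differed most and Grm2 least. Grm5 had 217, 239 and 254 CPM as lowest, median and highest value in cKO, against 223, 275 and 302 CPM in WT. As for Grin2b, 5 of the 6 WT libraries lay above every cKO library and WT 1 did not. The log2 fold change was -0.18 ± 0.06 (SE), or 0.883-fold, and edgeR gave an adjusted p of 0.395. Without WT 1 it was -0.24 with an adjusted p of 0.0570, within a range of 0.0570 to 0.712 over all alternatives.

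Grm7 had 45.3, 47.7 and 51.2 CPM as lowest, median and highest value in cKO, against 43.4, 53.0 and 59.3 CPM in WT. All 6 cKO libraries lay inside the WT range, which WT 1 opened at its lower end, and all 6 lay below the WT median. For Grm7 the log2 fold change was -0.14 ± 0.06 (SE, edgeR adjusted p = 0.521). Grm2, the mGlu receptor known in the hippocampus from dentate granule cell terminals, had 59.4, 62.4 and 76.6 CPM as lowest, median and highest value in cKO, against 59.3, 65.0 and 72.4 CPM in WT. Its log2 fold change was -0.01 ± 0.06 (SE, edgeR adjusted p = 0.980), an interval of -0.14 to 0.12 at 2 SE on either side, and its sign depended on the libraries used.

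Pairs of receptor genes differed in how closely their levels followed each other between animals. Likeness was measured as proportionality, 1 minus the variance of the log2 ratio of a gene pair divided by the sum of both variances, which is 1 when the ratio is constant. The 12 libraries behind each value share their scaling and tissue composition, and the values are descriptions. Grin2b was most like Grm5 (0.88) and Grin2a (0.86), and Grm5 was like Grm7 (0.83) and Grin2a (0.80). Grin2c was most like Grm2, at 0.63. Grin2d was most like Grin3a, at 0.55, while Grin3a was most like Grm7 (0.60) and nearly as like Grm5 (0.54). The lowest values were -0.42 for Grin2a with Grin2d and -0.45 for Grin2d with Grm2.

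The animals with high and low values can be named. Relative to the mean of the 12 libraries, Grin2b stood highest in WT 5 at 0.29 on the log2 scale and lowest in cKO 5 at -0.22, with WT 1 at -0.19. Grm5 stood at 0.25 in WT 2 and at -0.23 in cKO 3. Grin2d and Grin3a were highest in cKO 4, at 0.45 and 0.29, and low in both cKO 1 (-0.27 and -0.30) and WT 1 (-0.27 and -0.31). In cKO 3 they stood apart, with Grin2d at 0.19 and Grin3a at -0.28. The summed level of 7 interneuron markers was also highest in cKO 4, at 805 CPM, and lowest in cKO 1 and WT 1, at 619 and 626 CPM. It was 676 to 733 CPM in the other cKO libraries and 652 to 732 CPM in the other WT libraries. Its part in the levels of Grin2d and Grin3a was not tested.

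**Figure D4:**
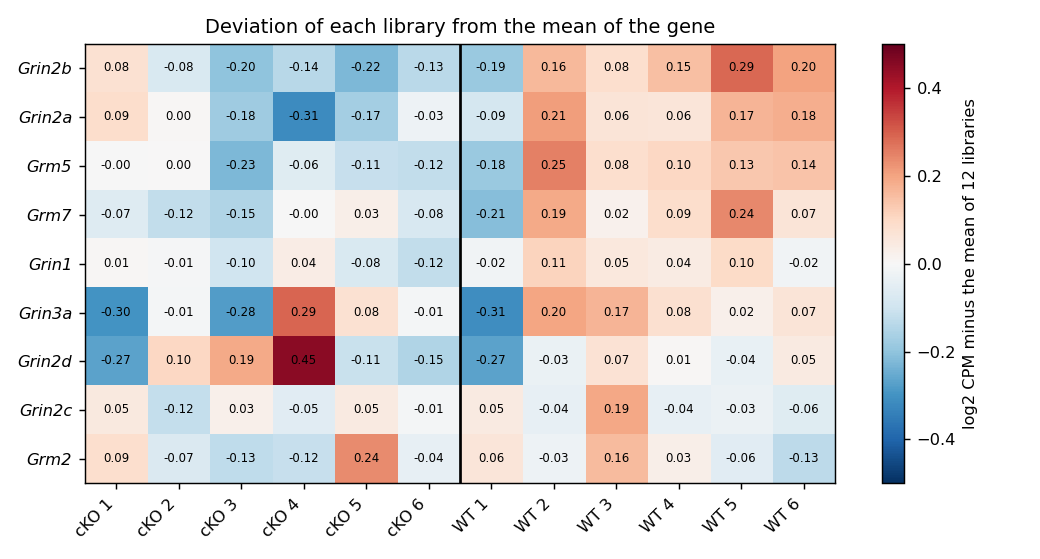
Log2 CPM of each receptor gene in each library minus its mean over the 12 libraries, cKO left of the black line and WT right of it. Grin2b, Grin2a, Grm5 and Grm7 share blue in WT 1 and cKO 3 and red in WT 2 and WT 5, while Grin2d and Grin3a peak in cKO 4 at 0.45 and 0.29.

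Outside the family, the 3 genes most proportional to each receptor were taken from 9970 genes with a mean of at least 10 CPM. For Grin2b they were Apc (0.97), Cacna1e (0.96) and Ank3 (0.96), and for Grin2a they were Iws1 (0.95), Slc24a2 (0.95) and Bod1l (0.94). Grm5 went with Map2 (0.96), the AMPA receptor gene Gria2 (0.96) and Chl1 (0.94), and Grm7 with Pgm2l1 (0.92), Prkcb (0.92) and Btbd8 (0.91). Grin1 went with Hnrnpu (0.90), Clcn3 (0.89) and Luc7l2 (0.89). For Grin2d the genes were Usp35 (0.94), Lhx6 (0.89) and Timp2 (0.88), and for Grin3a they were Rab3c (0.93), Plxnc1 (0.92) and Gda (0.91). Grin2c had its highest values with Hira (0.82), Tlcd1 (0.82) and Spry2 (0.80), and Grm2 with Tmem14a (0.87), Kcnk2 (0.86) and Tiam2 (0.83). The 9 genes named for Grin2b, Grin2a and Grm5 had log2 fold changes of -0.28 to -0.18. Their selection favours such values, because proportionality over the 12 libraries takes in the difference between genotypes.

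The 4 receptor genes that span at least 400 kilobases (Grin2a, Grin2b, Grm5 and Grm7) were those with the most negative log2 fold changes of the 9. Among their relatives Grm8, of 860 kilobases, was at 0.03 and Grm3, of 239.6 kilobases, at -0.15, more negative than Grm7. This feature was looked at after the values had been seen. Among 331 other tested coding genes of at least 400 kilobases, the median log2 fold change was -0.07, 78.3% were below 0, and 21.5% were lower at an unadjusted p under 0.05. Among 10928 genes of under 50 kilobases, the size class of Grin1, Grin2c, Grin2d and Grm2, the median was 0.02, 35.7% were below 0 and 2.86% were lower at that p. The classes between had medians of -0.01 (50 to 200 kilobases, 3617 genes) and -0.04 (200 to 400 kilobases, 615 genes). No gene of at least 50 kilobases in these classes passed the adjusted threshold in edgeR. The long genes also differed between animals within a genotype. Their median deviation was lowest in cKO 3 and cKO 6 (-0.09 and -0.08 on the log2 scale) among cKO and in WT 1 (-0.10) among WT, and highest in cKO 1 (0.00) among cKO and in WT 5 (0.13) among WT. The part of this in the receptor genes' values was not tested.

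**Figure D5:**
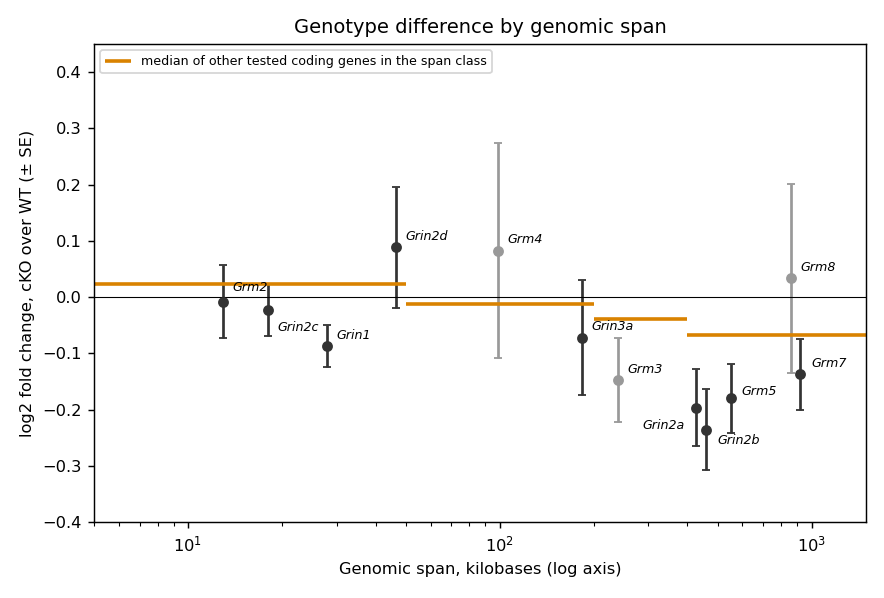
Log2 fold change of cKO over WT with its SE against genomic span (log axis) for the 9 receptor genes (dark) and 3 relatives (grey), with the median of other tested coding genes in each of 4 span classes as orange lines. The lines run from 0.02 below 50 kilobases to -0.07 from 400 kilobases, and Grin2a, Grin2b, Grm5 and Grm7 lie below the last one.

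Markers of other cell types were read in the same libraries. The 5 excitatory neuron markers were all lower in cKO by log2 fold change (median -0.07), as were the 5 dentate granule markers (median -0.16), the 6 oligodendrocyte markers (median -0.09) and the 4 neocortex markers (median -0.12). CA1 markers had 1 higher and 4 lower (median -0.0028), CA3 markers 2 and 2 (median -0.0061), and thalamus markers 2 and 2 (median -0.0080). The summed level of oligodendrocyte markers was 1325 to 2210 CPM in cKO and 1640 to 2469 CPM in WT. All 7 smooth muscle markers were higher (median 0.84), at a summed 89.7 to 140 CPM in cKO and 49.9 to 86.6 CPM in WT, without overlap. Also higher were all 10 choroid plexus markers (median 0.34), all 7 interneuron markers (median 0.04) and all 5 endothelial markers (median 0.09). Choroid plexus markers summed to 58.9 to 5602 CPM in cKO and 90.6 to 8358 CPM in WT, with WT 1 the highest library. Of these markers, Ttr had 0.25 ± 0.95 (SE, edgeR adjusted p = 0.960). Astrocyte markers summed to 1484 to 1722 CPM in cKO and 1512 to 1670 CPM in WT, and microglial markers to 234 to 262 CPM in cKO and 246 to 256 CPM in WT. Endothelial markers summed to 176 to 202 CPM in cKO and 168 to 186 CPM in WT. Markers of neighbouring thalamus and neocortex summed to 72.6 to 90.9 and 127 to 197 CPM in cKO, against 77.0 to 93.3 and 131 to 206 CPM in WT. No single marker passed the adjusted threshold in edgeR, and their part in the receptor values was not tested, except that leaving out the 3 libraries lowest in choroid plexus markers left log2 fold changes of -0.23 for Grin2b, -0.15 for Grm5, -0.14 for Grin2a and -0.13 for Grm7.

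Grm3, Grm4 and Grm8 did not pass the threshold either. Grm3, a Gi/o-coupled receptor of astrocytes and neurons, was at 26.7 ± 2.37 CPM in cKO and 29.6 ± 3.24 CPM in WT (SD, n = 6 each), with 3 cKO libraries below the lowest WT library. Its log2 difference was -0.15 ± 0.07 (SE, edgeR adjusted p = 0.567). Grm4 and Grm8, presynaptic relatives of Grm7, had 0.08 ± 0.19 and 0.03 ± 0.17 (edgeR adjusted p = 0.927 and 0.969), with coefficients of variation of 32.0% and 26.0% in cKO and 19.8% and 21.1% in WT. Grin3b, with 1 to 12 counts per library, and Grm6, with 0 or 1, were too low to test.

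The partners of the NMDA receptor were taken in 3 lists. Of 16 scaffold and trafficking genes 0 passed, 13 were lower and 3 higher, with a median log2 fold change of -0.04, beside 0.01 over all genes tested. Those with the smallest p were Dlgap2, a protein of the postsynaptic density (-0.14 ± 0.06, SE), the scaffold Dlg2 (-0.10 ± 0.05), Cask (-0.08 ± 0.04) and Lin7a (-0.10 ± 0.06), with edgeR adjusted p of 0.4995 to 0.668. Of 14 kinase, phosphatase and calcium signalling genes 0 passed and 11 were lower (median -0.04). Rasgrf2, an exchange factor for Ras, had -0.09 ± 0.05, the calcineurin subunits Ppp3ca and Ppp3cb had -0.10 ± 0.05 and -0.05 ± 0.03, and Camk2a, the main kinase of the postsynaptic density, had -0.07 ± 0.06. Their edgeR adjusted p ran between 0.575 and 0.757. The 4 tested genes of co-agonist supply lay near 0 (median 0.01). Srr, which makes D-serine, had -0.05 ± 0.04, the D-serine carrier Slc7a10 0.11 ± 0.13, the glycine transporter Slc6a9 0.02 ± 0.05 and Slc1a4 0.01 ± 0.05, with edgeR adjusted p of at least 0.743.

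The list of mGlu5 partners and Gq signalling genes included the most negative values among the partners. Of 18 tested, 0 passed, 12 were lower and 6 higher (median -0.05), and 6 were lower at an unadjusted p under 0.05, beside 6.34% of all genes tested. In the other partner lists 1 of 16 scaffold, 0 of 14 kinase and calcium, 0 of 4 co-agonist and 1 of 17 mGlu2, mGlu7 and Gi/o genes were. Among coding genes the share lower at that p rose with genomic span, as described above, to 21.5% from 400 kilobases. The spans of the partner genes were not compared. Prkcb, a protein kinase C, was at 316 ± 18.1 CPM in cKO and 359 ± 29.6 CPM in WT (SD, n = 6 each), a difference of -0.19 ± 0.06 (SE) in log2 that edgeR gave an adjusted p of 0.353. Itpr1, the calcium release channel opened by inositol trisphosphate, was at 436 ± 49.1 CPM in cKO and 508 ± 35.4 CPM in WT, with 5 of 6 cKO libraries below every WT library and an adjusted p of 0.365. Plcb1, the phospholipase activated by Gq, had -0.14 ± 0.05 (adjusted p = 0.372). Homer2, which tethers mGlu5 to the postsynaptic density, had -0.12 ± 0.04 (adjusted p = 0.421), again with 5 of 6 cKO libraries below every WT library. Of 17 genes listed as mGlu2 and mGlu7 partners and Gi/o signalling, 0 passed, 8 were lower and 9 higher (median 0.03). Adcy2 and Adcy9, adenylyl cyclases, had -0.08 ± 0.04 and -0.11 ± 0.06, the G protein subunit Gnai2 0.06 ± 0.03, and Pick1, a PDZ protein that binds mGlu7, 0.07 ± 0.05, with edgeR adjusted p of 0.520 to 0.667.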

How the data were processed

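The authors deposited estimated counts for each gene symbol and animal, made with Salmon per the submitters' processing notes and without scaling between libraries. The notes name Salmon 1.3.0 and GRCm38. No source used here gives the transcript annotation, the strand setting or how transcripts were summed. Counts were rounded to whole numbers, since 24.77 to 25.92% of a library's values were not whole. Genotypes were compared with edgeR 4.0.16 in R 4.3.3 (quasi-likelihood test, TMM, filterByExpr minimum count 10, minimum total 15), with Benjamini-Hochberg adjustment over all genes tested and a threshold of 0.05. Alternatives used DESeq2 1.42.0, limma-voom (limma 3.58.1), other scalings and filters, and left out animals. The edgeR steps were tested on simulated data. The planted changes were larger than those of the receptor genes, so the simulation does not show how well changes of that size are found.

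Levels per kilobase and 3′ UTRs used GENCODE M21, and microRNA sequences came from RefSeq. Log2 CPM for proportionality had a prior count of 2. P-values set the difference between genotypes against the spread between the animals numbered in the labels, which edgeR estimates with information shared across genes. No libraries of 1 genotype were duplicates: the chi-square of every pair was at least 8.51 times its degrees of freedom.

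The members, gene lists and tests were chosen with earlier results of these data known. Named were the 9 genes, 5 relatives (a further one is not reported here), the 4 partner genes with the smallest p in each list, and the 3 most proportional genes outside the receptor list per member, predicted genes left out. Mirg and B830012L14Rik were named as a check of the labels. Kdelr1 and Gm45441 were named after the overlap was seen.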

Additional observations from a re-analysis of the deposited data

Results flagged for a closer look

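In 26 groups of 6 animals (12 tested receptor genes and the Grin2b to Grin2a ratio, in each genotype), the gap of the highest or lowest library to the nearest other one was compared with Dixon's critical share of the range. Chance alone gives about 1 in 20. WT 1 stood apart at Grin2d with 14.6 CPM, where the other WT libraries had 17.1 to 18.5 CPM. The library labelled cKO 4 stood apart in the log2 ratio of Grin2b to Grin2a with 1.17, where the other cKO libraries had 0.88 to 0.98.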

How the results depend on the processing

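Each log2 fold change was recomputed under 21 alternatives, 189 values in all. No receptor gene passed the threshold under any of them (smallest adjusted p 0.0570), and 181 values kept their direction. The 8 others belonged to Grm2, Grin2c and Grin2d: Grm2 was at 0.0012 with library totals alone, and without the 3 libraries lowest in choroid plexus markers Grin2c was at 0.022 and Grm2 at 0.044. With each animal left out in turn, Grin2c ran between -0.046 and 0.0099, Grin2d between -0.0057 and 0.14, and Grm2 between -0.066 and 0.016. The cause was not tested. Without the library labelled cKO 1, Grin1, Grin2a, Grm5 and Grm7 were at -0.105, -0.244, -0.205 and -0.145. Their edgeR adjusted p then ran between 0.133 and 0.426.

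The 2 genes called by edgeR over the whole table became 87 with DESeq2 (24 higher, 63 lower), 0 with limma-voom (1847 at an unadjusted p under 0.05), 1 without a low-count filter and 1 with a minimum of 1 CPM in 6 libraries. Without the 3 low choroid plexus libraries edgeR called 0 (1457 at an unadjusted p under 0.05), and between 0 and 6 with 1 animal left out, where 6 was without the library labelled cKO 1 and every other library left 0. The 5 receptor genes lower at an unadjusted p under 0.05 became 1 without the 3 low choroid plexus libraries, and 3 to 5 with 1 animal left out. This count was added after the data were seen.

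With the replicate block edgeR called 0 genes (1724 at an unadjusted p under 0.05) and the ratio test gave p = 0.531 by exact sign-flip permutation. The deviations of same-numbered libraries had correlations of -0.38 to 0.54 over 10339 genes, mixed in sign. Of the 6 cKO libraries 2 correlated best with their own number, and the numbers were not taken as pairs. The difference in the Grin2b to Grin2a ratio kept its sign under 15 alternatives (-0.09 to -0.01, exact permutation p of 0.104 to 0.814). The count of 34 ordered pairs ran between 33 and 35. Depth does not limit these genes, each with at least 685 counts in every library. Gene length limits the order of levels.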
